A study of Homo sapiens with 9 samples.

Results

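Fatty acid and triglyceride metabolism was described through 38 genes, which were taken by symbol from a table of 27548 rows and 25245 distinct symbols. They comprised 13 genes of fatty acid synthesis, desaturation and elongation, 7 of activation, uptake and binding, 12 of triglyceride storage and breakdown, and 6 of mitochondrial oxidation. The samples were RNA sequencing libraries of MDA-MB-231, a human cell line established from triple-negative breast cancer, with 3 libraries in each of 3 groups. The TLX+siTLX group (libraries S7 to S9) was the line overexpressing TLX, an orphan nuclear receptor encoded by NR2E1, after transfection with an siRNA directed at TLX. The TLX+siCTL group (S4 to S6) was the same line with a universal negative control siRNA, and the CTL+siCTL group (S1 to S3) was control cells with that control siRNA. All groups were transfected for 48 h with the same reagent, so none was free of siRNA and reagent. The sources used here do not say how TLX was overexpressed or whether each line was 1 clone. The control samples have PC3, the name of a prostate cancer line, in their titles without explanation, although the line stated for them is MDA-MB-231. Since no label calls the replicates separate cultures, the p-values reflect the spread between these libraries, which may be technical.

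Cells make fatty acids in the cytosol from acetyl-CoA, which ATP citrate lyase forms from citrate and acetyl-CoA synthetase from acetate. Acetyl-CoA carboxylase and fatty acid synthase build the saturated chain, which elongases lengthen and desaturases modify. Long-chain acyl-CoA synthetases then activate fatty acids, which are either esterified to triglyceride and stored in lipid droplets or carried by the carnitine shuttle into mitochondria for beta-oxidation. In breast cancer cells both synthesis and droplet storage are known for supplying membranes and fuel. The transcription factors SREBP1 and liver X receptor are known activators of the synthesis genes, and PPAR receptors of several oxidation, binding and droplet genes.

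RefSeq promoter windows of GRCh38.p14, the 250 bases before an annotated start, were matched for 31 of the 38 genes, in 52 windows. They were searched on both strands for CCAAT, the box bound by NF-Y, for CACGTG, the E-box, for TCACNCCAC, a sterol regulatory element, and for AAGTCA, the core hexamer bound by TLX. The promoters of SCD, ACLY, ACSS2 and FADS3 are shown because they moved in the comparisons below in both directions and hold CCAAT, given in capitals, read as ATTGG where it lies on the other strand. They were chosen after their values were seen. Against CTL+siCTL, the TLX+siCTL libraries had less SCD, ACLY and ACSS2 and more FADS3. Each is printed in the direction of its gene up to the first base that an exon of the GENCODE 29 annotation covers. ACLY and ACSS2 have 2 windows each, and only the first in the gene's direction is printed. The other ACSS2 window holds AAGTCA and no CCAAT. The stretches of ACLY, ACSS2 and FADS3 lie within the span that GENCODE 29 gives those genes.
SCD promoter, chr10:100346983-100347123, plus strand: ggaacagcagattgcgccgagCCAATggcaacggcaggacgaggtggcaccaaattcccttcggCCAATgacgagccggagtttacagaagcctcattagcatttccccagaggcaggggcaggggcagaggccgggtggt
ACLY promoter, chr17:41919023-41919272, minus strand: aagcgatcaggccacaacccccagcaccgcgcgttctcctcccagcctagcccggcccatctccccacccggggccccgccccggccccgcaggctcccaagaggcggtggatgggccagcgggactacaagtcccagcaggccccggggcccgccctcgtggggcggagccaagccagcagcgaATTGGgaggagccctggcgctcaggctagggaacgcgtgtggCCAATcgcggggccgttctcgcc
ACSS2 promoter, chr20:34874739-34874941, plus strand: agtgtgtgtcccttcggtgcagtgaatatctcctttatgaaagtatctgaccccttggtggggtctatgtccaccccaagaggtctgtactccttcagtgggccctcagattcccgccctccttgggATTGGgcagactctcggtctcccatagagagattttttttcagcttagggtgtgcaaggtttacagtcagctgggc
FADS3 promoter, chr11:61891546-61891795, minus strand: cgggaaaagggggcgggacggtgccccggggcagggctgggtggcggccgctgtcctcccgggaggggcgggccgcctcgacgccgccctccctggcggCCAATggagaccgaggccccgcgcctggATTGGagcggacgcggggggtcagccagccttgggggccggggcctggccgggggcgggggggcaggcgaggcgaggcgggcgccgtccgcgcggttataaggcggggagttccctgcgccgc
CCAAT lay in 10 of 18 windows of the synthesis genes (55.6%), which come from 12 genes, and in 32.0% of all 35116 windows. Over all member windows it lay in 16 of 52 (30.8%), in ACACA, ACACB, ACLY, ACSL1, ACSL3, ACSS2, CD36, ELOVL1, ELOVL5, FADS3, LIPE, PLIN3 and SCD. Of these, ACACB, CD36, ELOVL1 and ELOVL5 had no call in any comparison. The windows of FADS1, FADS2 and ELOVL7, which fell in TLX+siCTL, did not hold it. AAGTCA lay in 7 of the 52 member windows (13.5%) and in 10.9% of all windows, in ACADVL, ACSL1, ACSL5, ACSS2, CD36, LPIN1 and PLIN3. TCACNCCAC lay in 2 of 52, in ACSL1 and PNPLA2 (3.85%, against 0.883% of all windows), and CACGTG in 3 of 52, in ELOVL5, LPIN2 and PLIN2 (5.77%, against 6.34%). The 18 windows of the synthesis genes held no TCACNCCAC, and PNPLA2 had no call in any comparison. Windows of 1 gene can overlap, as the 2 of ACLY do, and a match is a description of letters, not of binding.

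Effective library sizes ranged from 73.8 to 91.7 M reads, read from the steps between low values. S7 and S9 lay furthest from the rest of their group, with a median absolute deviation of 0.111 and 0.121 log2 units, against 0.057 to 0.0733 in the other 7 libraries. NR2E1 had -2.61, -3.40 and -1.77 log2 CPM in TLX+siTLX, 0.28, -0.84 and 0.23 log2 CPM in TLX+siCTL, and -4.59, -4.28 and -4.50 log2 CPM in CTL+siCTL, so the groups did not overlap. On this scale the siRNA group had more NR2E1 than control cells (log2 fold change 1.86 ± 0.47, SE, adjusted p = 0.0134), a call that was lost without S1 (1.80, adjusted p = 0.0549). With log2(CPM + 1) the difference was 0.18 and was not called (adjusted p = 0.387). The control values lay near the lowest deposited value of -5.33 log2 CPM, so the size of this fold change is uncertain. Of the mesenchymal markers of this line, VIM, CD44, AXL, ZEB1 and CAV1 summed to 4640 to 4900 CPM in TLX+siTLX, 3420 to 3490 CPM in TLX+siCTL and 3020 to 3120 CPM in CTL+siCTL. In TLX+siCTL against CTL+siCTL, AXL rose by 1.13 ± 0.04 (adjusted p = 4.3e-07), CAV1 by 0.96 ± 0.05 (adjusted p = 2.88e-06) and CD44 by 0.46 ± 0.05 (adjusted p = 0.000116). VIM fell there by 0.64 ± 0.06 (adjusted p = 8.02e-05) and ZEB1 by 0.38 ± 0.12 (adjusted p = 0.0362). In TLX+siTLX against TLX+siCTL, CAV1 rose by 0.99 ± 0.05 (adjusted p = 6.21e-06) and VIM by 0.68 ± 0.06 (adjusted p = 0.000115). CD44 and AXL also rose there, by 0.31 ± 0.05 and 0.29 ± 0.04, and ZEB1 had no call (-0.14 ± 0.12, adjusted p = 0.491). The 4 luminal markers ESR1, PGR, EPCAM and CDH1 summed to 22.4 to 24.8 CPM in TLX+siTLX, 16.9 to 18.8 CPM in TLX+siCTL and 18.4 to 24.2 CPM in CTL+siCTL. ESR1, the oestrogen receptor gene, averaged -2.31 log2 CPM in TLX+siTLX, -2.58 in TLX+siCTL and -2.39 in CTL+siCTL. CDH1, which encodes E-cadherin, fell by 3.03 ± 0.27 in TLX+siCTL against CTL+siCTL (adjusted p = 4.7e-05) and rose by 2.41 ± 0.27 in TLX+siTLX against TLX+siCTL (adjusted p = 0.000321). In the first of these comparisons the progesterone receptor gene PGR fell by 2.22 ± 0.59 (adjusted p = 0.0196), and EPCAM rose by 0.21 ± 0.06 (adjusted p = 0.0302). In the second, EPCAM rose by 0.23 ± 0.06 (adjusted p = 0.0234), and PGR and ESR1 had no call. The part that these shifts of markers have in the results was not tested. The 4 adipocyte markers found, which are those of a cell type rich in the storage genes, summed to at most 1.07 CPM in every library.

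TLX+siCTL against CTL+siCTL sets the TLX line against control cells under the same siRNA, so that TLX cannot be told apart from any other difference of the 2 lines. Its results are those given as in TLX+siCTL. Of the 38 members more were lower than higher in the TLX line, while the triglyceride enzyme DGAT2 and the lipolysis inhibitor G0S2 were higher. By limma, 27 of the 38 genes passed an adjusted p of 0.05, 21 lower and 6 higher. Over all rows 30.1% were called, 15.1% lower and 15.0% higher, and over the 12564 rows that average 1 log2 CPM or more, the level that 36 of the 38 members reach, 56.6%, with 27.4% lower and 29.3% higher. The median log2 fold change of the members was -0.28, against 0.00 over all rows. Groups did not overlap for 32 of 38 members, against 41.4% of all rows. Shares of overlap and of 2-fold changes, here and below, were taken over all rows only, not over rows of the members' level. In bulk RNA, less RNA per cell and fewer cells of a kind cannot be told apart.

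TLX+siTLX against TLX+siCTL sets the siRNA to TLX against the control siRNA within the TLX line, and its results are those given as after the siRNA or at the siRNA step. No control cells received the siRNA to TLX, so loss of TLX cannot be told apart from other effects of that siRNA. Here 18 of 38 members were called, 7 higher and 11 lower, against 23.7% of all rows (12.7% higher and 10.9% lower) and 45.8% of rows that average 1 log2 CPM or more (23.8% higher and 22.0% lower). The members' share of 47.4% was near that second background. Their median was -0.02, and groups did not overlap for 21 of 38, against 33.9% of all rows. The comparison of TLX+siTLX with CTL+siCTL gave 27 called members, 8 higher and 19 lower, against 34.6% of all rows (17.7% higher and 17.0% lower) and 63.6% of the rows of that level (32.4% higher and 31.2% lower). The median there was -0.37, against 0.00 over all rows, and groups did not overlap for 29 of 38, against 42.2% of all rows. At least 2-fold changes were called in 7, 1 and 9 members in the order given, against 6.28%, 3.43% and 8.59% of all rows. Each pair of comparisons shares 3 libraries, so their values are set side by side without a measure of likeness.

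**Figure D1:**
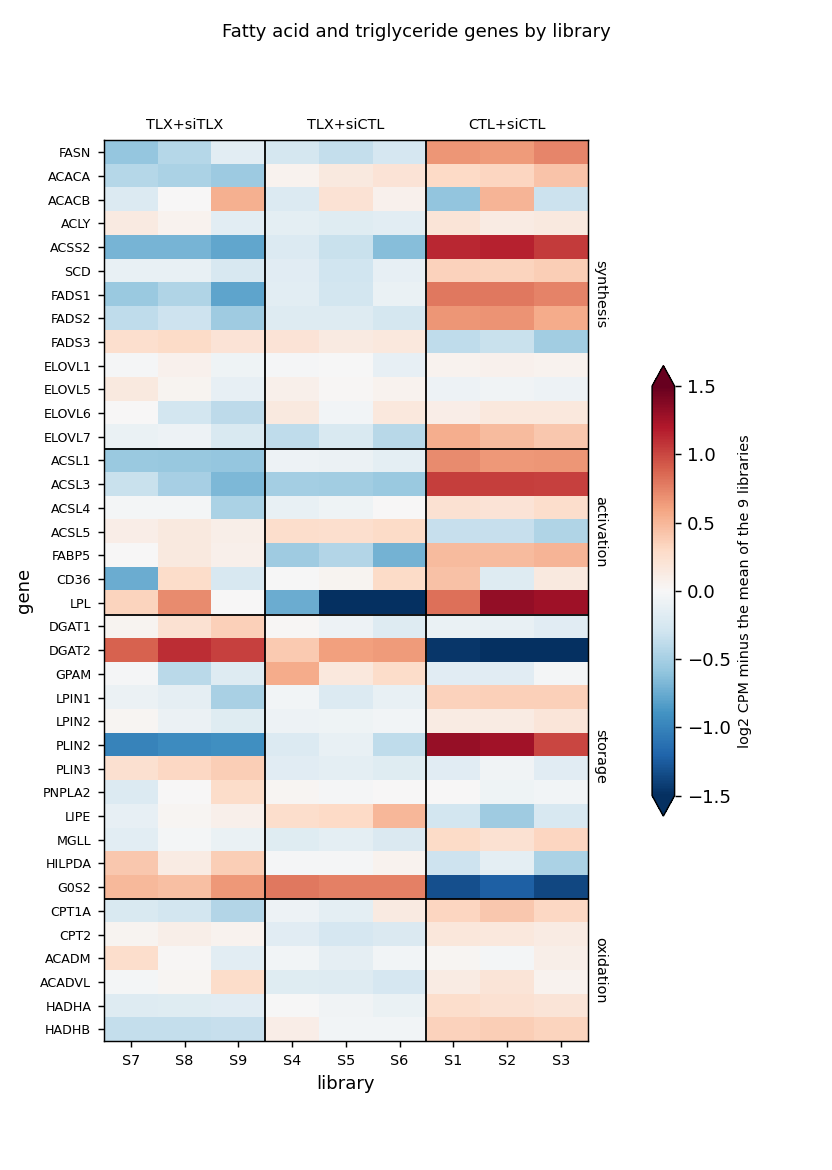
Heat map of the 38 genes (rows, by class) in the 9 libraries (columns, by group); colour is log2 CPM minus the gene's mean over the 9 libraries, cut at 1.5 in both directions. PLIN2, ACSS2 and ACSL3 were low in all 6 libraries of the TLX line, and DGAT2 and G0S2 were high there.

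In TLX+siCTL, 8 of the 13 synthesis genes fell and 1 rose, with a median log2 fold change of -0.31. Their called share was 69.2%, against 56.6% of rows that average 1 log2 CPM or more and 30.1% of all rows. ACSS2, the cytosolic acetyl-CoA synthetase that uses acetate, had 6.82, 6.82 and 6.73 log2 CPM in TLX+siTLX, 7.31, 7.18 and 6.88 log2 CPM in TLX+siCTL, and 8.65, 8.67 and 8.56 log2 CPM in CTL+siCTL. All 6 libraries of the TLX line lay below the control libraries, and the siRNA libraries lay lowest. In TLX+siCTL it was at 0.353 of the control level (log2 fold change -1.50 ± 0.10, SE, adjusted p = 7.03e-06), and in TLX+siTLX at 0.28 (-1.84 ± 0.10, adjusted p = 1.4e-06). Its fall after the siRNA was smaller (-0.34 ± 0.10, adjusted p = 0.0339) and lost its call without any single library other than S6 (adjusted p = 0.0655 to 0.136).

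FASN, the multifunctional synthase that builds palmitate, had 9.42, 9.58 and 9.85 log2 CPM in TLX+siTLX, 9.74, 9.65 and 9.75 log2 CPM in TLX+siCTL, and 10.67, 10.64 and 10.74 log2 CPM in CTL+siCTL. The groups of the TLX line overlapped each other and lay about 1 log2 unit under the control libraries. FASN fell by 0.97 ± 0.10 in TLX+siCTL (SE, adjusted p = 7.49e-05) and had a log2 fold change of -1.07 ± 0.10 in TLX+siTLX against CTL+siCTL (adjusted p = 3.01e-05). Between TLX+siTLX and TLX+siCTL the difference was -0.10 ± 0.10 (adjusted p = 0.54), and without S9, the highest of the siRNA libraries, it was -0.21 (adjusted p = 0.0471).

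ACACA, the carboxylase that makes malonyl-CoA for synthesis, had its larger difference at the siRNA step. It had 6.88, 6.83 and 6.76 log2 CPM in TLX+siTLX, 7.36, 7.45 and 7.51 log2 CPM in TLX+siCTL, and 7.60, 7.63 and 7.74 log2 CPM in CTL+siCTL, with no overlap between any groups. It fell by 0.62 ± 0.05 after the siRNA (adjusted p = 8.56e-05), and its log2 fold change in TLX+siCTL against CTL+siCTL was -0.22 ± 0.05 (adjusted p = 0.0151). That smaller difference lost its call without S3 or S4 (adjusted p = 0.0554 to 0.0628). A further ACACA row outside the primary annotation averaged 3.28 log2 CPM. ACACB, the form tied to control of oxidation at mitochondria, ranged from 1.31 to 2.43 log2 CPM over the 9 libraries and had no call in any comparison.

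SCD, the desaturase that makes oleate from stearate, had 11.02, 11.03 and 10.90 log2 CPM in TLX+siTLX, 10.97, 10.84 and 11.01 log2 CPM in TLX+siCTL, and 11.48, 11.47 and 11.50 log2 CPM in CTL+siCTL. Both groups of the TLX line lay under the control libraries and overlapped each other. Its log2 fold changes were -0.54 ± 0.06 in TLX+siCTL against CTL+siCTL (adjusted p = 0.000172), 0.04 ± 0.06 after the siRNA (adjusted p = 0.682) and -0.50 ± 0.06 in TLX+siTLX against CTL+siCTL (adjusted p = 0.000218).

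FADS1 and FADS2, the delta-5 and delta-6 desaturases of polyunsaturated fatty acids, are neighbours on chromosome 11 in opposite directions, with RefSeq starts 599 to 800 bases apart. FADS1 had 8.07, 8.18 and 7.84 log2 CPM in TLX+siTLX, 8.47, 8.35 and 8.53 log2 CPM in TLX+siCTL, and 9.42, 9.42 and 9.37 log2 CPM in CTL+siCTL. FADS2 had 8.19, 8.26 and 8.04 log2 CPM in TLX+siTLX, 8.37, 8.37 and 8.30 log2 CPM in TLX+siCTL, and 9.23, 9.24 and 9.12 log2 CPM in CTL+siCTL. For both genes the 3 groups did not overlap, with the siRNA libraries lowest. FADS1 fell by 0.95 ± 0.08 in TLX+siCTL (adjusted p = 3.9e-05) and by a further 0.42 ± 0.08 after the siRNA (adjusted p = 0.00645, and 0.0532 with only these 2 groups fitted). FADS2 fell by 0.85 ± 0.06 in TLX+siCTL (adjusted p = 1.26e-05), and after the siRNA its log2 fold change was -0.18 ± 0.06 (adjusted p = 0.0634), which passed the threshold without S8 (adjusted p = 0.0388) and in 5 other settings, the authors' deposited table among them (adjusted p = 0.0149 to 0.0413). Their exons overlap on the other strand over 490 bases, and FADS3, the third desaturase of the cluster, rose by 0.58 ± 0.05 in TLX+siCTL (adjusted p = 3.86e-05) with no call after the siRNA (0.08 ± 0.05, adjusted p = 0.331).

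ACLY, the citrate lyase, fell by 0.31 ± 0.07 in TLX+siCTL (adjusted p = 0.00802), and after the siRNA its log2 fold change was 0.17 ± 0.07 (adjusted p = 0.129). Without S9 that value was 0.25 (adjusted p = 0.00332), and without S7 the difference of TLX+siTLX from CTL+siCTL, -0.14 ± 0.07 (adjusted p = 0.153), became -0.21 (adjusted p = 0.0426). Among the elongases, ELOVL7 fell by 0.82 ± 0.07 in TLX+siCTL (adjusted p = 3.27e-05) and was also lower in TLX+siTLX than in CTL+siCTL (-0.62 ± 0.07, adjusted p = 0.000131). After the siRNA ELOVL7 had a log2 fold change of 0.21 ± 0.07 (adjusted p = 0.0664), which was called without S5 or S9 (0.26, adjusted p = 0.0348 to 0.039). This also held when only rows that average 1 log2 CPM or more were tested (adjusted p = 0.0397). ELOVL6, which lengthens palmitate, differed in TLX+siTLX from CTL+siCTL (-0.36 ± 0.10, adjusted p = 0.0194), a call lost without S1, S2, S3, S8 or S9 (adjusted p = 0.0643 to 0.084). After the siRNA its log2 fold change of -0.30 ± 0.10 missed the threshold (adjusted p = 0.056) and passed it without S7 (-0.42, adjusted p = 0.00642) and in 6 other settings (-0.33 to -0.30, adjusted p = 0.0168 to 0.0464). ELOVL1 and ELOVL5 had no call, with log2 fold changes from -0.11 to 0.12 over the 3 comparisons. ELOVL5 was called without S9 in TLX+siCTL against CTL+siCTL (0.12, adjusted p = 0.0236) and in TLX+siTLX against CTL+siCTL (0.16, adjusted p = 0.00931). The first of these was also called with only its 2 groups fitted (adjusted p = 0.00732). After the siRNA ACACA, ACSS2 and FADS1 fell and the other 10 of the 13 synthesis genes had no call, while in TLX+siTLX against CTL+siCTL 8 fell and 1 rose with a median of -0.50. These called shares were 23.1% and 69.2%. Over rows that average 1 log2 CPM or more the shares were 45.8% and 63.6%, and over all rows 23.7% and 34.6%.

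**Figure D2:**
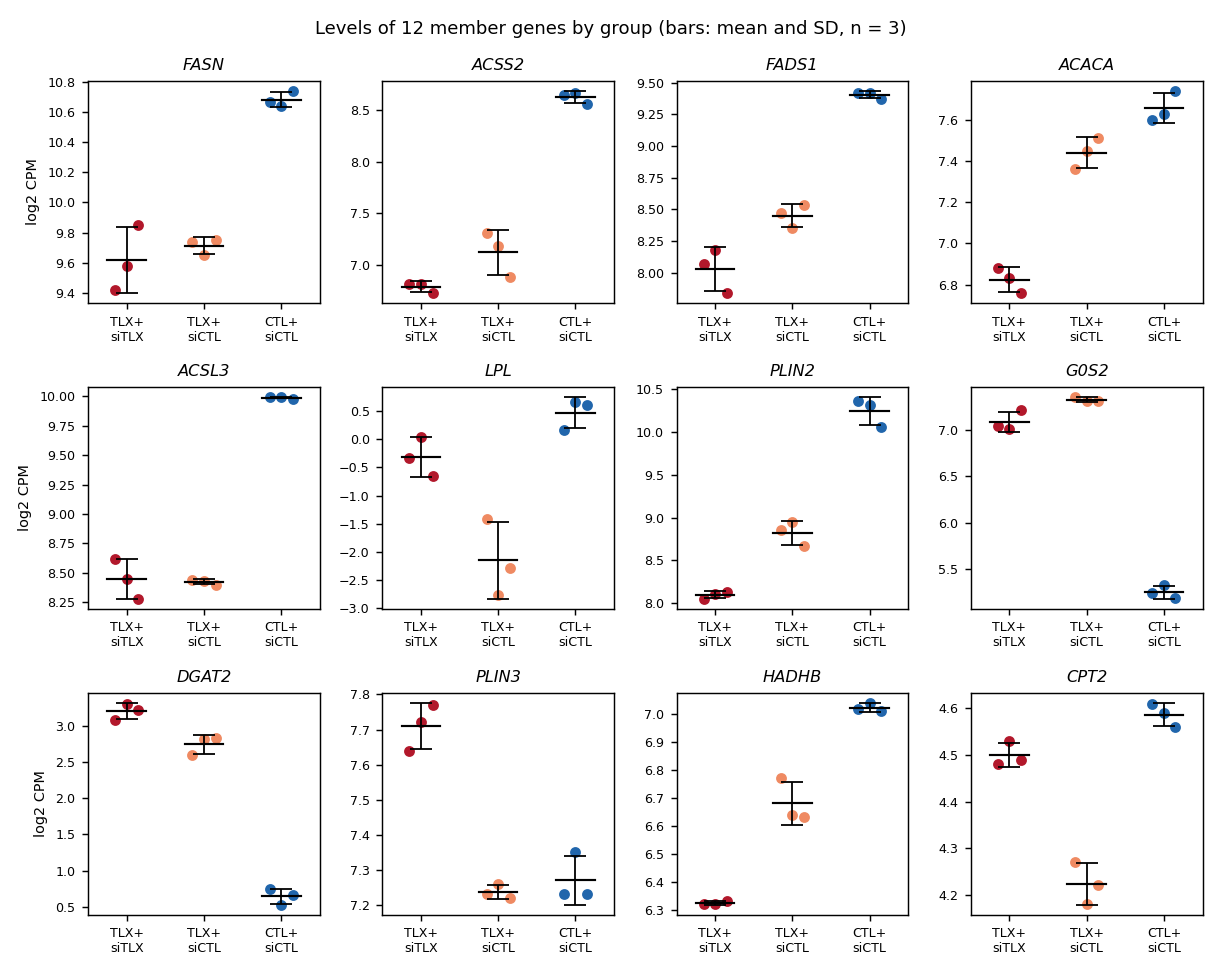
Log2 CPM of 12 genes in each library (points), with mean and SD per group (bars, n = 3); each panel has its own axis, which does not start at 0. FASN and ACSL3 separate the control libraries from both groups of the TLX line, while LPL and CPT2 are lowest in TLX+siCTL and PLIN3 is highest in TLX+siTLX.

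The 4 long-chain acyl-CoA synthetases, which attach coenzyme A to fatty acids, moved in different directions. ACSL3, the form of the endoplasmic reticulum and early lipid droplets, had 8.62, 8.45 and 8.28 log2 CPM in TLX+siTLX, 8.44, 8.43 and 8.40 log2 CPM in TLX+siCTL, and 9.99, 9.99 and 9.98 log2 CPM in CTL+siCTL. The TLX line lay under all control libraries with either siRNA, and its 2 groups overlapped. ACSL3 was at 0.339 of the control level in TLX+siCTL (log2 fold change -1.56 ± 0.07, adjusted p = 1.97e-06) and at 0.345 in TLX+siTLX (-1.53 ± 0.07, adjusted p = 9.59e-07), with a change of 0.03 ± 0.07 between them (adjusted p = 0.876). ACSL1, a synthetase known for feeding both oxidation and storage, had 6.30, 6.28 and 6.27 log2 CPM in TLX+siTLX, 6.78, 6.76 and 6.70 log2 CPM in TLX+siCTL, and 7.56, 7.50 and 7.52 log2 CPM in CTL+siCTL. It fell by 0.78 ± 0.03 in TLX+siCTL (adjusted p = 1.12e-06) and by 0.47 ± 0.03 more after the siRNA (adjusted p = 2.69e-05), so that the groups were 3 separate steps. ACSL5 rose by 0.65 ± 0.04 in TLX+siCTL (adjusted p = 4.45e-06) and fell by 0.16 ± 0.04 after the siRNA (adjusted p = 0.0152, and 0.0501 without S6). ACSL4, which prefers arachidonate and is known for its part in ferroptosis, had a log2 fold change of -0.29 ± 0.11 in TLX+siCTL (adjusted p = 0.0854, and 0.000857 without S9). That difference was also called with only these 2 groups fitted (adjusted p = 0.00352) and with a robust variance model. It passed too when only rows that average 1 log2 CPM or more were tested (adjusted p = 0.0279). In TLX+siTLX against CTL+siCTL it fell by 0.41 ± 0.11 (adjusted p = 0.018), which was not called without S1, S2 or S3 (adjusted p = 0.0598 to 0.076) and was -0.26 without S9 (adjusted p = 0.00215).

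Of the 3 genes of uptake and binding, FABP5 and LPL fell in TLX+siCTL and rose after the siRNA, and CD36 had no call. FABP5, a cytosolic fatty acid carrier, had 3.23, 3.38 and 3.31 log2 CPM in TLX+siTLX, 2.70, 2.79 and 2.52 log2 CPM in TLX+siCTL, and 3.70, 3.70 and 3.74 log2 CPM in CTL+siCTL. It fell by 1.04 ± 0.08 in TLX+siCTL (adjusted p = 1.51e-05), rose by 0.64 ± 0.08 after the siRNA (adjusted p = 0.000456) and was still lower in TLX+siTLX than in CTL+siCTL (-0.41 ± 0.08, adjusted p = 0.00295). FABP5 has many processed pseudogenes, so its value is uncertain. LPL, the secreted lipase that frees fatty acids from lipoproteins, was low, with -0.33, 0.04 and -0.66 log2 CPM in TLX+siTLX, -1.41, -2.76 and -2.28 log2 CPM in TLX+siCTL, and 0.16, 0.66 and 0.61 log2 CPM in CTL+siCTL. The 3 groups did not overlap. LPL fell by 2.63 ± 0.37 in TLX+siCTL (adjusted p = 0.000609) and rose by 1.83 ± 0.37 after the siRNA (adjusted p = 0.00664), on a log2 scale whose prior count understates such low genes. On the log2(CPM + 1) scale these values were -0.95 and 0.55, and both kept their call. Its difference between TLX+siTLX and CTL+siCTL was -0.79 ± 0.37 (adjusted p = 0.14) and was called on the log2(CPM + 1) scale (-0.41, adjusted p = 0.0244) and in the authors' deposited table (adjusted p = 0.0494). CD36, the fatty acid translocase, lay between -2.34 and -1.15 log2 CPM in all libraries and had no call.

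**Figure D3:**
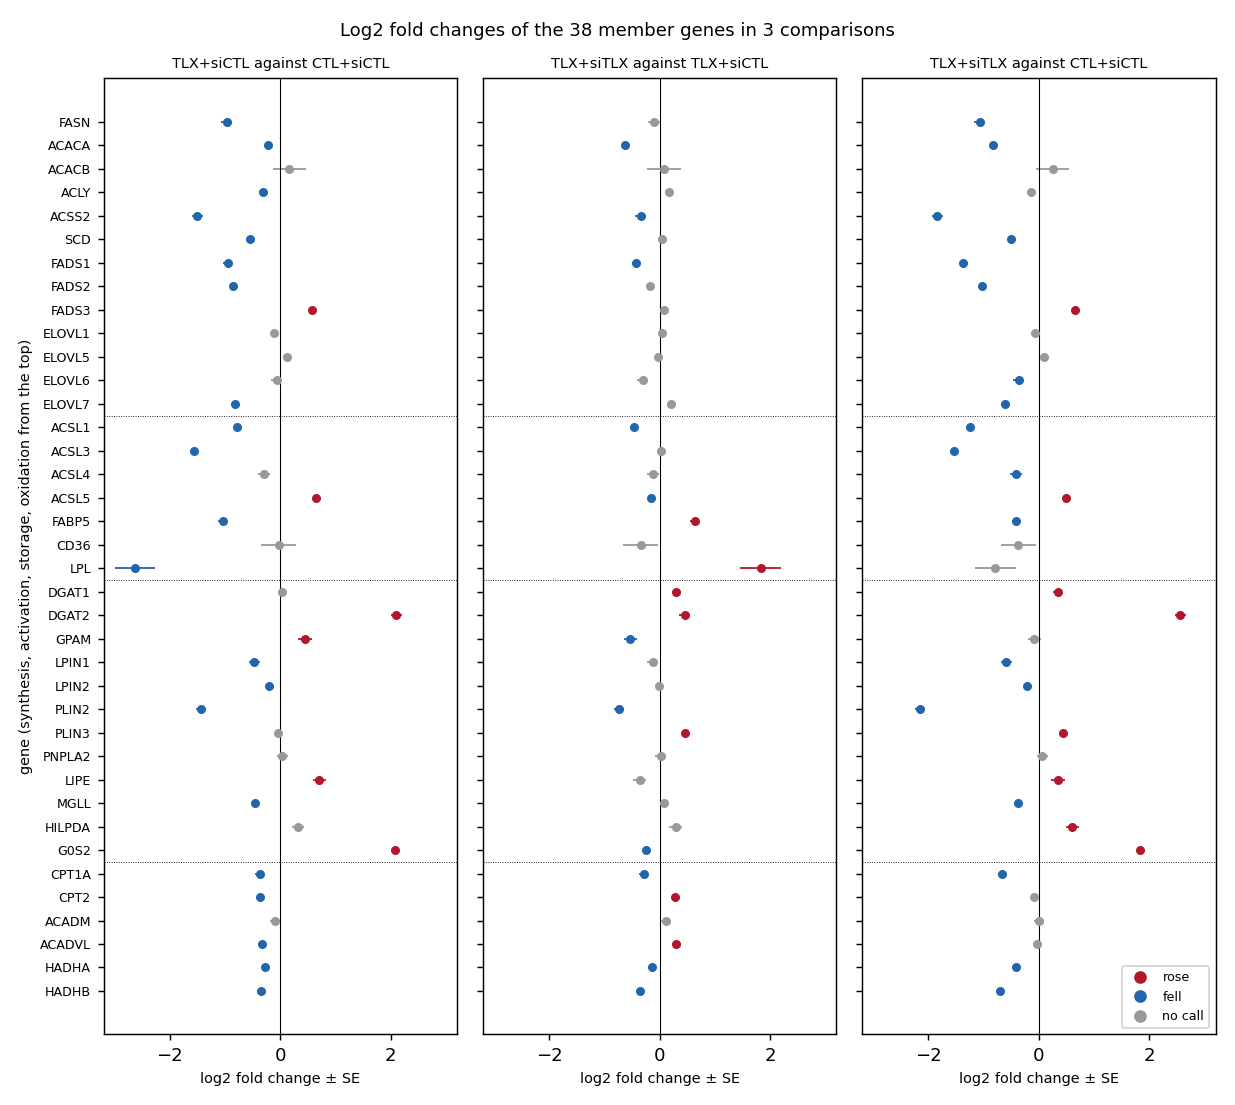
Log2 fold change and SE (limma, 9 libraries) of each of the 38 genes in the 3 comparisons, first-named group over second; red rose, blue fell and grey did not pass an adjusted p of 0.05. In TLX+siCTL against CTL+siCTL 21 genes lie to the left as falls and 6 to the right as rises, from LPL at -2.63 to DGAT2 at 2.10.

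In TLX+siCTL, 4 of the 12 storage genes rose and 4 fell, with a median of 0.04. Their called share of 66.7% stands beside 56.6% of rows that average 1 log2 CPM or more and 30.1% of all rows. The storage genes included the members with the largest rises. DGAT2, which adds the last fatty acid to make triglyceride, had 3.08, 3.30 and 3.22 log2 CPM in TLX+siTLX, 2.59, 2.81 and 2.83 log2 CPM in TLX+siCTL, and 0.74, 0.53 and 0.66 log2 CPM in CTL+siCTL. The groups did not overlap, and the siRNA libraries were highest. DGAT2 was 4.28-fold the control level in TLX+siCTL (log2 fold change 2.10 ± 0.10, adjusted p = 2.12e-06) and 5.88-fold the control level in TLX+siTLX (2.56 ± 0.10, adjusted p = 3.89e-07). Its rise at the siRNA step was 0.46 ± 0.10 (adjusted p = 0.0116), and 0.34 with quantile normalization (adjusted p = 0.0512). DGAT1, an unrelated enzyme for the same reaction, had 3.62, 3.80 and 3.93 log2 CPM in TLX+siTLX, 3.59, 3.50 and 3.38 log2 CPM in TLX+siCTL, and 3.48, 3.47 and 3.41 log2 CPM in CTL+siCTL. DGAT1 stood on 2 rows with the same values, so each row may hold part of its reads and its level is uncertain. Its log2 fold change was 0.04 ± 0.08 in TLX+siCTL (adjusted p = 0.802) and 0.30 ± 0.08 after the siRNA (adjusted p = 0.0347), a call lost without any single library other than S4 and S7 (adjusted p = 0.0588 to 0.122). In TLX+siTLX against CTL+siCTL it was 0.34 ± 0.08 (adjusted p = 0.0136, and 0.0504 to 0.0546 without S3 or S8).

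The lipid droplet coat genes differed among themselves. PLIN2, the coat protein that marks droplets in most cells, had 8.05, 8.11 and 8.13 log2 CPM in TLX+siTLX, 8.85, 8.95 and 8.67 log2 CPM in TLX+siCTL, and 10.36, 10.32 and 10.06 log2 CPM in CTL+siCTL. The groups formed 3 separate levels, with the siRNA libraries lowest. PLIN2 was at 0.372 of the control level in TLX+siCTL (-1.43 ± 0.09, adjusted p = 7.38e-06), fell by a further 0.73 ± 0.09 after the siRNA (adjusted p = 0.000593) and reached 0.225 of the control level in TLX+siTLX (-2.15 ± 0.09, adjusted p = 5.21e-07). PLIN3, a coat protein that also occurs in the cytosol, had a log2 fold change of -0.04 ± 0.05 in TLX+siCTL (adjusted p = 0.636) and rose by 0.47 ± 0.05 after the siRNA (adjusted p = 0.000151). HILPDA, a small droplet protein that inhibits the lipase PNPLA2 and is induced by hypoxia, rose by 0.61 ± 0.11 in TLX+siTLX against CTL+siCTL (adjusted p = 0.00196). Its log2 fold change was 0.32 ± 0.11 in TLX+siCTL (adjusted p = 0.0552) and 0.29 ± 0.11 after the siRNA (adjusted p = 0.0915), and each missed the threshold. The first passed it without S2 or S8 (adjusted p = 0.0307 to 0.0384) and in 3 other settings (adjusted p = 0.0284 to 0.0463). The second passed it without S8 (adjusted p = 0.0426) and when only rows that average 1 log2 CPM or more were tested (adjusted p = 0.0483).

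G0S2, which inhibits the same lipase, had 7.04, 7.01 and 7.21 log2 CPM in TLX+siTLX, 7.35, 7.31 and 7.31 log2 CPM in TLX+siCTL, and 5.24, 5.33 and 5.19 log2 CPM in CTL+siCTL. Every library of the TLX line lay well over the control libraries. It was at 4.19-fold the control level in TLX+siCTL (2.07 ± 0.06, adjusted p = 2.78e-07) and at 3.56-fold in TLX+siTLX (1.83 ± 0.06, adjusted p = 1.43e-07). The fall of 0.24 ± 0.06 after the siRNA (adjusted p = 0.0182) lost its call without S4, S5, S6, S7 or S8 (adjusted p = 0.0571 to 0.0758). PNPLA2 itself, the lipase that starts triglyceride breakdown, had no call, with log2 fold changes of 0.02 to 0.06, and varied from 7.18 to 7.65 log2 CPM within TLX+siTLX. LIPE, the hormone-sensitive lipase that follows it, rose by 0.71 ± 0.12 in TLX+siCTL (adjusted p = 0.00172). In TLX+siTLX against CTL+siCTL its rise of 0.35 ± 0.12 (adjusted p = 0.0494) was lost without S1, S2, S4, S5, S8 or S9 (adjusted p = 0.0578 to 0.126), and after the siRNA its -0.36 ± 0.12 (adjusted p = 0.0612) was called without S2 (adjusted p = 0.0402) and in 3 other settings (adjusted p = 0.0155 to 0.0463). MGLL, which completes the breakdown, fell by 0.46 ± 0.04 in TLX+siCTL (adjusted p = 6.88e-05) and had no call after the siRNA (0.08 ± 0.04, adjusted p = 0.243).

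Earlier steps of glycerolipid synthesis also differed. GPAM, the mitochondrial enzyme that adds the first fatty acid to glycerol phosphate, rose by 0.45 ± 0.12 in TLX+siCTL (adjusted p = 0.0219), a call lost without S1, S2, S3, S4 or S6 (adjusted p = 0.0506 to 0.0925). After the siRNA GPAM fell by 0.53 ± 0.12 (adjusted p = 0.0128, and 0.0556 without S8). The phosphatidate phosphatase LPIN1 fell by 0.47 ± 0.10 in TLX+siCTL (adjusted p = 0.00553) and its relative LPIN2 by 0.21 ± 0.05 (adjusted p = 0.0162), the second not called without S3, S4 or S5 (adjusted p = 0.0583 to 0.0654). Neither had a call after the siRNA (-0.12 ± 0.10, adjusted p = 0.472, and -0.01 ± 0.05, adjusted p = 0.924). Of the 12 storage genes 3 rose and 3 fell after the siRNA, and 6 rose and 4 fell in TLX+siTLX against CTL+siCTL. These called shares were 50% and 83.3%. Over rows that average 1 log2 CPM or more the shares were 45.8% and 63.6%, and over all rows 23.7% and 34.6%.

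In TLX+siCTL, 5 of the 6 oxidation genes fell, all but ACADM, by 0.28 to 0.37 log2 units, with a median of -0.34. Falls were called there in 27.4% of rows that average 1 log2 CPM or more and in 15.1% of all rows. CPT1A, the rate-setting carnitine transferase at the outer mitochondrial membrane, had 6.99, 6.95 and 6.78 log2 CPM in TLX+siTLX, 7.14, 7.08 and 7.36 log2 CPM in TLX+siCTL, and 7.54, 7.62 and 7.53 log2 CPM in CTL+siCTL. The groups did not overlap and the siRNA libraries were lowest. CPT1A fell by 0.37 ± 0.08 in TLX+siCTL (adjusted p = 0.00712), and its log2 fold change in TLX+siTLX against CTL+siCTL was -0.66 ± 0.08 (adjusted p = 0.000205). The step of -0.29 ± 0.08 after the siRNA (adjusted p = 0.0306) was lost without any single library other than S5 and S7 (adjusted p = 0.0593 to 0.109).

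HADHA and HADHB, the subunits of the mitochondrial trifunctional protein, lie head to head on chromosome 2 with RefSeq starts 307 bases apart. HADHB had 6.32, 6.32 and 6.33 log2 CPM in TLX+siTLX, 6.77, 6.64 and 6.63 log2 CPM in TLX+siCTL, and 7.02, 7.04 and 7.01 log2 CPM in CTL+siCTL, in 3 separate steps. It fell by 0.34 ± 0.04 in TLX+siCTL (adjusted p = 0.000238) and by 0.36 ± 0.04 after the siRNA (adjusted p = 0.000321). HADHA fell by 0.28 ± 0.03 in TLX+siCTL (adjusted p = 0.000258), and its smaller fall after the siRNA (-0.13 ± 0.03, adjusted p = 0.0276) was not called without S4, S5 or S8 (adjusted p = 0.0561 to 0.0626). CPT2, the inner-membrane partner of CPT1A, and ACADVL, the very-long-chain acyl-CoA dehydrogenase, went the other way after the siRNA. CPT2 fell by 0.36 ± 0.04 in TLX+siCTL (adjusted p = 0.000154), rose by 0.28 ± 0.04 after the siRNA (adjusted p = 0.00126) and differed by -0.09 ± 0.04 between TLX+siTLX and CTL+siCTL (adjusted p = 0.142). ACADVL fell by 0.33 ± 0.08 in TLX+siCTL (adjusted p = 0.0106, and 0.0551 to 0.0567 without S2 or S6) and rose by 0.30 ± 0.08 after the siRNA (adjusted p = 0.0214), which was lost without S1, S4, S5 or S6 (adjusted p = 0.0531 to 0.0926). ACADM, the medium-chain dehydrogenase, had no call, with log2 fold changes from -0.10 to 0.11.

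In TLX+siTLX against CTL+siCTL, falls lay in all 4 classes and rises in all but oxidation. Among the desaturases, FADS1 had a log2 fold change of -1.37 ± 0.08 in TLX+siTLX against CTL+siCTL (adjusted p = 3.2e-06), FADS2 one of -1.03 ± 0.06 (adjusted p = 2.64e-06) and FADS3 one of 0.66 ± 0.05 (adjusted p = 1.22e-05). ACACA was at -0.83 ± 0.05 in the same comparison (adjusted p = 4.8e-06). Of the synthetases, ACSL1 fell by 1.25 ± 0.03 (adjusted p = 5.17e-08) and ACSL5 rose by 0.49 ± 0.04 (adjusted p = 1.24e-05). For the storage genes LPIN1, LPIN2 and MGLL the log2 fold changes were -0.59, -0.22 and -0.38, and PLIN3 rose by 0.44 ± 0.05 (adjusted p = 9.16e-05). The trifunctional protein genes fell there too, HADHA by 0.41 ± 0.03 (adjusted p = 2.05e-05) and HADHB by 0.70 ± 0.04 (adjusted p = 2.52e-06). LPL, GPAM, ACLY, CPT2 and ACADVL, which had a call in TLX+siCTL, had none in TLX+siTLX against CTL+siCTL, where GPAM was at -0.08 ± 0.12 (adjusted p = 0.668) and ACADVL at -0.03 ± 0.08 (adjusted p = 0.831). The difference between these comparisons is the one after the siRNA, in which LPL, CPT2 and ACADVL rose, GPAM fell and ACLY had no call.

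Among 92 further genes of the same 4 processes, 88 were found in the table, and ELOVL4, FABP4, MOGAT1 and CIDEA were not analysed here. In TLX+siCTL against CTL+siCTL 21 of the 88 rose and 20 fell (46.6% called, median 0.00), after the siRNA 16 rose and 15 fell (35.2%), and in TLX+siTLX against CTL+siCTL 23 rose and 21 fell (50.0%). Rises and falls in this longer list were thus about even. The called shares stand beside 30.1%, 23.7% and 34.6% of all rows. For rows that average 1 log2 CPM or more the shares are 56.6%, 45.8% and 63.6%. The longer list also holds genes under that level, such as SLC27A6, THRSP and ELOVL2 (means of -5.18, -4.41 and -2.96 log2 CPM). Neither background is therefore matched to it. Further oxidation genes rose in 8 and fell in 8 of 29 cases in TLX+siCTL, and rose in 10 and fell in 2 after the siRNA, where the 41.4% called was near the 45.8% of rows of that level. Further storage genes rose in 6 and fell in 4 of 23 in TLX+siCTL, further synthesis genes in 4 and 4 of 17, and further activation genes in 3 and 4 of 19.

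The named genes of that list and of the regulators had the largest called differences among those that average 1 log2 CPM or more. LIPA, the acid lipase of lysosomes, had 5.95, 5.91 and 5.72 log2 CPM in TLX+siTLX, 6.80, 6.80 and 6.73 log2 CPM in TLX+siCTL, and 7.29, 7.28 and 7.29 log2 CPM in CTL+siCTL, in 3 separate levels. It fell by 0.92 ± 0.06 after the siRNA (adjusted p = 1.5e-05). ACOT1, a cytosolic thioesterase with the near-identical neighbour ACOT2 and therefore uncertain, fell by 1.08 ± 0.13 in TLX+siCTL (adjusted p = 0.000212) and by 1.50 ± 0.13 in TLX+siTLX against CTL+siCTL (adjusted p = 2.12e-05). ACAA2, the last enzyme of the mitochondrial spiral, fell by 0.87 ± 0.05 in TLX+siTLX against CTL+siCTL (adjusted p = 1.49e-06). The mitochondrial acetate enzyme ACSS1, with 3.56, 3.53 and 3.84 log2 CPM in TLX+siTLX, 3.27, 3.19 and 3.36 log2 CPM in TLX+siCTL, and 2.38, 2.30 and 2.58 log2 CPM in CTL+siCTL, rose by 1.22 ± 0.11 in TLX+siTLX against CTL+siCTL (adjusted p = 2.63e-05), where its cytosolic relative ACSS2 fell. GPAT3, an acyltransferase of the endoplasmic reticulum, rose by 1.13 ± 0.10 there (adjusted p = 2.15e-05). PNPLA3, a lipase relative known for its link to fatty liver, fell by 1.05 ± 0.19 in TLX+siCTL (adjusted p = 0.00243) and rose by 0.66 ± 0.19 after the siRNA (adjusted p = 0.0336), a call lost without S1, S2, S3, S4, S5, S6 or S9 (adjusted p = 0.0518 to 0.118).

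Of 19 regulators, 4 rose and 8 fell in TLX+siCTL, 5 rose and 5 fell after the siRNA, and 3 rose and 8 fell in TLX+siTLX against CTL+siCTL. These shares of 63.2%, 52.6% and 57.9% stand beside the 56.6%, 45.8% and 63.6% of rows that average 1 log2 CPM or more. SREBF1, which encodes SREBP1, had 7.26, 7.50 and 7.84 log2 CPM in TLX+siTLX, 6.84, 6.52 and 6.92 log2 CPM in TLX+siCTL, and 7.42, 7.44 and 7.50 log2 CPM in CTL+siCTL. It fell by 0.69 ± 0.15 in TLX+siCTL (adjusted p = 0.00595) and rose by 0.78 ± 0.15 after the siRNA (adjusted p = 0.00463), and the siRNA libraries lay on both sides of the control libraries. PPARG, the receptor of adipocyte storage programmes, had 5.43, 5.40 and 5.52 log2 CPM in TLX+siTLX, 5.09, 4.98 and 4.97 log2 CPM in TLX+siCTL, and 5.95, 5.96 and 5.88 log2 CPM in CTL+siCTL, and fell by 0.92 ± 0.05 in TLX+siCTL (adjusted p = 3.39e-06). HIF1A, the hypoxia factor that drives HILPDA, rose by 0.54 ± 0.04 after the siRNA (adjusted p = 3.23e-05) and was lower in TLX+siCTL than in CTL+siCTL (-0.83 ± 0.04, adjusted p = 2e-06). The coactivators of oxidation PPARGC1A and PPARGC1B rose in TLX+siCTL by 1.08 ± 0.21 (adjusted p = 0.00406) and 1.09 ± 0.16 (adjusted p = 0.00077). There 5 of 6 oxidation members fell, while of the 29 further oxidation genes 8 rose and 8 fell. PPARGC1A had 2.86, 2.55 and 2.18 log2 CPM in TLX+siTLX, 3.23, 3.69 and 2.93 log2 CPM in TLX+siCTL, and 2.18, 2.17 and 2.25 log2 CPM in CTL+siCTL. Its fall of 0.75 ± 0.21 after the siRNA (adjusted p = 0.0315) was lost without S1, S2, S3, S4, S5, S8 or S9 (adjusted p = 0.0683 to 0.117).

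**Figure D4:**
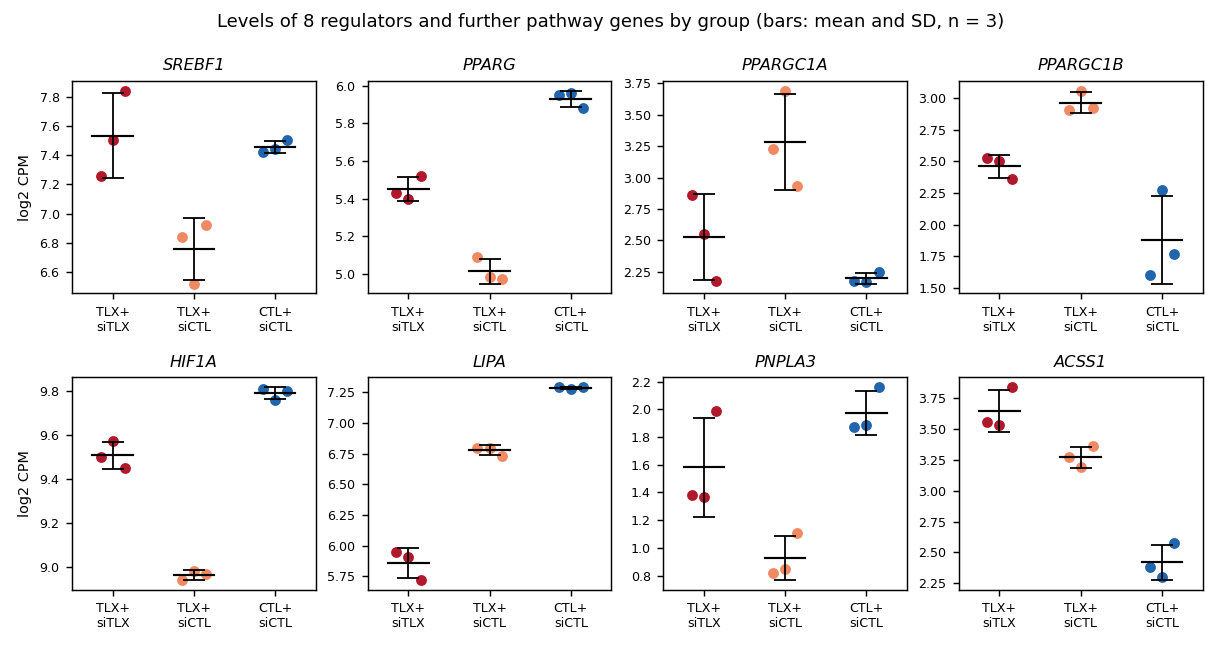
Log2 CPM of 5 regulators and 3 further pathway genes in each library (points), with mean and SD per group (bars, n = 3); each panel has its own axis, which does not start at 0. SREBF1, PPARG, HIF1A and PNPLA3 are lowest in TLX+siCTL, PPARGC1A and PPARGC1B are highest there, and LIPA steps down and ACSS1 up toward TLX+siTLX.

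Exons of 15 of the 38 genes are overlapped by a gene on the other strand in GENCODE 29. The libraries were stranded, per the labels' protocols, but the sources used here do not say whether counting used the strand. Signed fold changes in the authors' deposited table, where a fall is minus the inverse ratio, are -2.95 for ACSL3, -2.69 for PLIN2, 4.30 for DGAT2 and 4.19 for G0S2 in TLX+siCTL against CTL+siCTL.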

How the data were processed

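The values the authors deposited are log2 CPM (log2 of counts scaled to library size) for 27548 rows in 9 libraries. A further deposited table holds a signed fold change (a score here), a p-value and a q-value for each comparison. The submitters' processing notes name limma, edgeR, kallisto 0.44.0 and the build GRCh38 without their roles. The columns name a group and a running number that no label holds, so libraries are called S1 to S9. A common lowest log2 value of -5.33 fits a prior count of 2 and a mean effective size of 80.5 M reads. Depth is otherwise known only from steps between low values. No 2 libraries held identical values.

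For a symbol on several rows the row with the highest mean was kept. All rows were tested with limma 3.58.1 in R 4.3.3, in 1 two-sided fit of the 9 libraries with a mean per group and an intensity trend. Adjusted p is Benjamini-Hochberg over 27548 rows, with 0.05 as threshold. Each log2 fold change carries its moderated SE, and "rose", "fell" and "called" mean past that threshold. The prior count understates the fold change of low genes. The test was checked on simulated data. Genes were placed with GENCODE 29, which holds all 38 members. Levels in every library are given for members called with at least a 2-fold change in any comparison and for FASN, ACACA, SCD, CPT1A and DGAT1. Those of HADHB are also given, outside that rule. Of the further genes and regulators up to 5 per comparison were named, those with the largest called differences at a mean log2 CPM of at least 1. The members and lists were chosen with earlier results of these data known. Alternatives were other scalings, filters, pseudocounts, variance models and samples, and leaving out each library.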

Additional observations from a re-analysis of the deposited data

How the results depend on the processing

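Of the calls of members, 23 of 27 in TLX+siCTL against CTL+siCTL, 8 of 18 in TLX+siTLX against TLX+siCTL and 22 of 27 in TLX+siTLX against CTL+siCTL held in every setting that gave a value, 18 at most, of which 9 leave out 1 library each, and no call of a member changed sign. Of the members without a call, 3 of 11, 7 of 20 and 3 of 11 in the same order were called in some setting. The members that fell after the siRNA numbered 11, but 6 without an intensity trend, 6 with only the 2 groups compared, and 7 to 10 with each library left out, lowest without S4 or S8. They numbered 11 to 14 in the other settings. The cause was not tested. Beside calls lost with 1 library left out, calls were lost without an intensity trend for ACACA and LPIN2 in TLX+siCTL against CTL+siCTL and for ACSS2, ACSL5, DGAT1, G0S2, CPT1A, ACADVL and HADHA after the siRNA (adjusted p = 0.0518 to 0.129). With only the 2 groups compared they were lost after the siRNA for ACSS2, FADS1, DGAT1, GPAM, G0S2, CPT1A and ACADVL and in TLX+siTLX against CTL+siCTL for ELOVL6, ACSL4, LPIN2 and LIPE (adjusted p = 0.0523 to 0.132). Quantile normalization ended the calls of DGAT1 and DGAT2 after the siRNA (adjusted p = 0.101 and 0.0512) and of LIPE in TLX+siTLX against CTL+siCTL (adjusted p = 0.117), and centring ended those of DGAT1 (adjusted p = 0.0549) and LIPE (adjusted p = 0.0656). The LIPE call also ended on the log2(CPM + 1) scale (adjusted p = 0.079) and in the authors' deposited table (adjusted p = 0.0727). The other counts of members and of rows stayed within 1.5 times. In TLX+siCTL against CTL+siCTL 19 to 22 members fell and 5 to 7 rose over all settings. After the siRNA 5 to 8 rose, and in TLX+siTLX against CTL+siCTL 16 to 20 fell and 6 to 8 rose. Centring or quantile normalization moved the median of all rows by at most 0.029 in size. NR2E1 in TLX+siTLX against CTL+siCTL was 0.18 on the log2(CPM + 1) scale (adjusted p = 0.387). No paired analysis was possible because the columns carry no replicate number of the labels. Depth limits LPL and CD36, the 2 members with a mean log2 CPM under 1.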
